A study of Drosophila melanogaster with 2 samples.

Results

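The genes of Drosophila insulator and architectural proteins were examined for where, and how strongly, a GFP-tagged form of the kinase Nemo was recovered on chromatin at them. The 10 genes (Cp190, CTCF, su(Hw), BEAF-32, Chro, pita, ZIPIC, Ibf1, Ibf2 and mod(mdg4)) are 10 of the 13968 protein-coding genes in the annotation. They were chosen by name, and the choice was made with peak strengths of these data already known. Their summits were selected on position, within 1000 bp of an annotated transcription start or inside the gene body, so the peak strengths below describe the genes and are no test of them. The data form 1 group of 2 samples, biological replicates 2 and 3, listed as separate biosamples from a transgenic line in which nmo carries a C-terminal GFP tag. Whole embryos of mixed sex, aged 0 to 24 h, were sonicated to fragments of 200 to 800 bp, and an antibody against GFP was used for chromatin immunoprecipitation followed by sequencing. The promoter that drives the tagged copy and the state of the native nmo gene are not given in the sources used here, and input DNA or a mock precipitation was not examined separately. Per the deposited text notes, a further file beside the immunoprecipitated reads entered the authors' peak calls, and how it entered the signal values is not given in the sources used here. Because whole embryos were used, a weak peak in many cells and a strong peak in few cells cannot be told apart.

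Insulator proteins bind DNA, or bind each other on DNA, and limit contact between enhancers and promoters on either side. In flies, DNA-binding members such as CTCF, Su(Hw), BEAF-32, Pita, ZIPIC and the Ibf proteins bring in shared partners, chiefly Cp190 and isoforms of Mod(mdg4), and Chromator (the product of Chro) is found with several of them at domain borders and polytene interbands. Many such sites lie at promoters of broadly expressed genes that face each other on opposite strands, where the DNA replication-related element (DRE) TATCGATA and the BEAF-32 core CGATA are common. Nemo, the product of nmo, is a serine/threonine kinase of signalling pathways and has no known DNA-binding domain of its own.

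The authors deposited 4 peak lists. Replicate 2, replicate 3 and the pooled reads each gave 30000 peaks, and a list filtered by the irreproducible discovery rate (IDR), which asks whether a peak's rank repeats between replicates, held 9299. The IDR peaks keep their pooled values. A peak in the IDR list need not have a summit in both replicate lists, as weaker summits at CTCF and mod(mdg4) below show. Peak strength is the authors' signal value, on the scale of their peak caller and of each list, so lists are compared by rank, with rank 1 the strongest. In the IDR list signal values ran from 166 to 7478. Distances are from a gene's own transcription start in the direction of transcription, negative when upstream, and coordinates are on assembly dm6.

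An IDR summit lay within 1000 bp of a start of 9 of the 10 genes, and ZIPIC was the exception. Of all protein-coding genes, 43.8% had such a summit. The counts were 9 of 10 in the pooled list, beside 61.8% of coding genes, 10 of 10 in replicate 2, beside 62.2%, and 9 of 10 in replicate 3, beside 61.1%. Among the 9, the strongest IDR summit per gene ran from 196 to 5851 in signal value with a median of 484, while the 6122 coding genes with a summit had a median of 407 and quartiles of 271 and 670. Of the 9, su(Hw), BEAF-32 and pita lay between those quartiles, mod(mdg4), Ibf1 and Ibf2 below them, and Chro, Cp190 and CTCF above them. A promoter summit of rank 100 or better was found at 2 of the 10 genes, Chro and Cp190, beside 0.773% of coding genes. The limit of 100 was not planned, and the genes were chosen with peak strengths known, so this count is description only. The study compares no conditions, and how well the replicates repeat is the measure of error here.

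**Figure D1:**
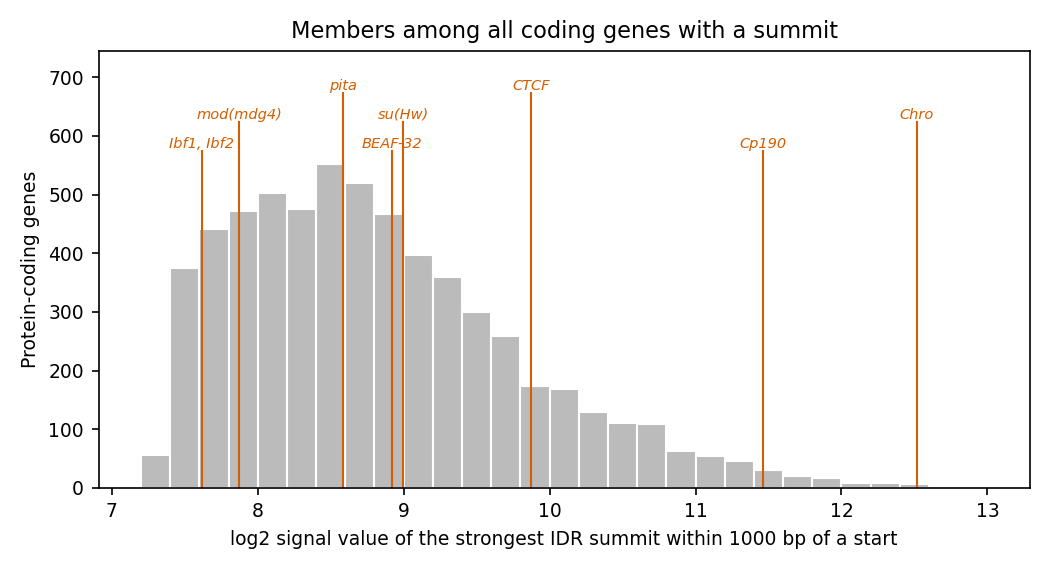
Histogram of the log2 signal value of the strongest IDR summit within 1000 bp of a start for the 6122 protein-coding genes that have one (grey bars, number of genes on the vertical axis). The lines mark the 9 insulator protein genes with such a summit, from Ibf1 and Ibf2 (signal value 196) at the left to Cp190 (2817) and Chro (5851) in the right tail.

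Chro (FBgn0044324) encodes Chromator, a chromodomain protein of interbands and of the mitotic spindle matrix, and had the strongest peak of the 10 genes. The gene lies at chr3L:22873702-22878984 on the minus strand and has 3 annotated starts. Its summit at position 22878905 was +79 bp from the most upstream start, in the 5′ UTR. Its signal value was 5851, which made it number 6 of the IDR peaks by rank. The signal value was 1837 in replicate 2 and 4046 in replicate 3, and the rank was 6 in each. The 2 replicate summits, at +83 and +81 bp, were 2 bp apart, so place and rank both repeated. The height repeated less well on a scale set by the list medians. With each replicate multiplied by the ratio of the pooled list's median to its own, replicate 2 alone gave 3838 and replicate 3 alone 7026. The strongest peak of the whole list was also lower in replicate 2 (2297) than in replicate 3 (5398). The gap at Chro therefore depends on which peaks set the scale. Chro took place 7 among the 6122 coding genes when these were ordered by their strongest promoter summit.

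The Chro peak could not be given to Chro alone. Ssl1, which encodes a subunit of the general transcription factor TFIIH, starts 105 bp away on the opposite strand, and the same summit was -184 bp from it. The summit lay on the Chro side of this divergent pair, inside the Chro transcript.

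Cp190 (FBgn0000283) encodes the zinc finger and BTB protein that most fly insulator complexes share. At chr3R:15270432-15275241 on the minus strand, its summit at position 15275361 lay -120 bp from the start with a signal value of 2817 and rank 76. Replicate 2 gave 872 and rank 99, and replicate 3 gave 1949 and rank 68. Both replicates thus placed it near the top of their lists, at -123 and -120 bp. On the same scale set by the list medians, replicate 2 alone gave 1822 and replicate 3 alone 3384, with the same limit as at Chro. The gene took place 82 among the 6122. CG4338 starts 281 bp away on the opposite strand, and the summit, -161 bp from that start, lay between the pair of starts and nearer to Cp190.

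CTCF (FBgn0035769) encodes the fly form of CTCF, a zinc finger protein known in vertebrates for anchoring chromatin loops with cohesin. The gene lies at chr3L:7353578-7356713 on the minus strand with a single start, and no other coding gene starts within 1000 bp. Its strongest summit, at position 7356557, was +156 bp from the start, in an intron, with a signal value of 938 and rank 933. Replicate 2 gave 364 and rank 766 at +99 bp, and replicate 3 gave 577 and rank 1049 at +164 bp. The ranks were alike, while the replicate summits were further apart than at Chro or Cp190. A weaker IDR summit at -52 bp had a signal value of 249 and rank 6413. Replicate 3 had it at 103 and rank 8986, and replicate 2 had no summit there. The annotation places a copy of the transposable element Quasimodo within 100 bp of this weaker summit, and whether that affected read placement was not tested.

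The bases within 100 bp of the summits at Chro, Cp190 and CTCF are shown because these are the 3 strongest promoter peaks of the 10 genes. Sequences here are from the RefSeq copy of fly genome Release 6, whose coordinates are those of dm6, and each is written on the minus strand, the strand of the gene, with the summit in the middle. Capitals mark matches, on either strand, to any of 6 short sequences searched: CGATA (BEAF-32), TATCGATA (DRE, which contains CGATA on both strands), GGTCACACT (Motif 1, bound by M1BP), GAGAG (GAGA factor), AGNNGGCGC (CTCF core) and TGCATACTT (Su(Hw) core).
Chro, chr3L:22878805-22879005: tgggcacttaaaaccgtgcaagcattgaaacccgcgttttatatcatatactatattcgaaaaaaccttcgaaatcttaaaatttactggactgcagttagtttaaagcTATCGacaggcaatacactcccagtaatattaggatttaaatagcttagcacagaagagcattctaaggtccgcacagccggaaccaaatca
Cp190, chr3R:15275261-15275461: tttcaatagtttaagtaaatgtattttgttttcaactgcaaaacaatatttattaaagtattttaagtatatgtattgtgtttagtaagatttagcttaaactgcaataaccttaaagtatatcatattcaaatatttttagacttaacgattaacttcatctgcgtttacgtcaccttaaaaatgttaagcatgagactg
CTCF, chr3L:7356457-7356657: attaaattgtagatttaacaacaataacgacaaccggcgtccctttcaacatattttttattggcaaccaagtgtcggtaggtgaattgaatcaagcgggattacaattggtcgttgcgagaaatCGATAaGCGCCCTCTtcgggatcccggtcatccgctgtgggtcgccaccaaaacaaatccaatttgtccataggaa
The CTCF window held the CTCF core, in reverse, 31 to 39 bp downstream of the summit, and CGATA at 25 to 29 bp. Among the 5272 IDR summits within 1000 bp of a coding start, 3.05% held AGNNGGCGC and 42.1% held CGATA in the same width. The Chro window held CGATA at 9 to 13 bp. None of the 6 sequences was found in the Cp190 window, whose GC content of 24.4% was below the quartiles of 29.9% and 40.3% for all such windows. GC content was 38.3% for Chro and 43.8% for CTCF. A match is a run of letters and not a measured binding site, and no match says only that these letters are not in the window.

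The DRE was found close to the start of most of the 10 genes. In the window from 250 bp before to 50 bp after a start, TATCGATA occurred in 7 of the 10 genes, all but su(Hw), Chro and ZIPIC, beside 10.2% of coding genes. By start rather than gene it was in 8 of 16 windows, or 50%, beside 7.98% of 19276 distinct coding starts. CGATA occurred in 9 of 10 genes, all but su(Hw), beside 53.0% of coding genes. TATCGATA also lay within 100 bp of an IDR promoter summit of CTCF, pita, mod(mdg4) and the Ibf pair. Counted by summit and not by gene, the share over all 5272 promoter summits was 9.92%. At CTCF this was the weaker summit at -52 bp, and the windows at the strongest summits of Chro, Cp190 and CTCF held no TATCGATA. Of the 1419 coding genes with TATCGATA at a start, 76.6% had an IDR summit within 1000 bp of a start. Among all coding genes this share was 43.8%. The share was higher, 81.1%, for genes with Motif 1 at a start, so a high share was not particular to the DRE. It was 58.2% for the CTCF core, 54.4% for CGATA, 46.2% for GAGAG and 45.1% for the Su(Hw) core.

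The 101 bp from 80 bp before the most upstream start to 20 bp after it show where the DRE stood. They are written 5′ to 3′ on the strand of each gene, and capitals mark TATCGATA. The stretches of Cp190, CTCF, Ibf1, Ibf2 and mod(mdg4) hold it, and those of Chro, su(Hw) and ZIPIC, which do not, follow for comparison. Those of pita, where the DRE lies inside the same stretch, and of BEAF-32, where it lies further upstream, are not printed.
Cp190, chr3R:15275221-15275321: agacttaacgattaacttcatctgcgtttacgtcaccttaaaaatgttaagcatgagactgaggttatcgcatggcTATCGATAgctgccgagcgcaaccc
CTCF, chr3L:7356693-7356793: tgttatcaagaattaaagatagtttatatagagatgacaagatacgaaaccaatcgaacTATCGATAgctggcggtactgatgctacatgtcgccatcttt
Ibf1, chr3R:9258884-9258984: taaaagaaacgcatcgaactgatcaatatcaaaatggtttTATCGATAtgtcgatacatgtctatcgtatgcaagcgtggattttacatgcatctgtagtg
Ibf2, chr3R:9258481-9258581: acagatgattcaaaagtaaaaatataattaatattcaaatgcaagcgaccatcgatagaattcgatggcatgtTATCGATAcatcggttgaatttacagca
mod(mdg4), chr3R:21377381-21377481: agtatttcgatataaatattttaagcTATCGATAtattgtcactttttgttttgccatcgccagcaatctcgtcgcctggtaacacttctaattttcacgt
Chro, chr3L:22878964-22879064: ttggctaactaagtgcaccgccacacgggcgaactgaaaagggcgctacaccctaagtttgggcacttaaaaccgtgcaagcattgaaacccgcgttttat
su(Hw), chr3R:14308569-14308669: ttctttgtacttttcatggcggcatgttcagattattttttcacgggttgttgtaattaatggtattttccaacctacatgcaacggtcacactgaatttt
ZIPIC, chr3R:30036850-30036950: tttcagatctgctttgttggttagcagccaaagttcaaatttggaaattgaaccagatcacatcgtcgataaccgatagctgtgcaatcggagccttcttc
Counting the start base as 0, the DRE ran from -4 to 3 in Cp190, from -7 to 0 in Ibf2 and from -21 to -14 in CTCF. It lay further upstream in Ibf1, from -40 to -33, and in mod(mdg4), from -54 to -47. The alternative start of Cp190, at position 15274790, had its own DRE from -21 to -14. Motif 1 was found after the start of su(Hw), from 5 to 13, and of ZIPIC, from 28 to 36, which are 2 of the 3 genes without a DRE at the start. Motif 1 was in the start window of 6.77% of all coding genes.

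su(Hw) (FBgn0003567) encodes the zinc finger protein that binds the gypsy insulator. The gene, at chr3R:14304455-14308589 on the minus strand, had a summit at -273 bp with a signal value of 511 and rank 2548. Replicate 2 gave 194 and rank 2404 at -245 bp, and replicate 3 gave 311 and rank 2778 at -272 bp. Coding genes with a promoter summit in the replicate's list, IDR or not, had a median strongest value of 119 in replicate 2 and 177 in replicate 3. Both values of su(Hw) were above these medians. A further IDR summit at -475 bp had a signal value of 186 and rank 8473, close to the end of the IDR list. Polr2I, a subunit gene of RNA polymerase II, starts 500 bp away on the opposite strand, and both summits were nearer to its start, at -227 and -25 bp. When each summit was given only to the nearest coding start, su(Hw) had no summit.

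BEAF-32 (FBgn0015602) encodes the boundary element-associated factor that binds CGATA clusters. The gene is on chromosome 2R, from 14770469 to 14772630 on the plus strand, with 3 starts. The summit at -63 bp from the most upstream start had a signal value of 484 and rank 2758, and a further one at -969 bp had 351 and rank 4362. The replicates did not order the 2 summits alike. In replicate 2 the far summit was the stronger, with 155 and rank 3530 against 142 and rank 4084. In replicate 3 the near summit was, with 346 and rank 2374 against 169 and rank 5801. The far summit lay -77 bp from Spred, whose start is just over 1000 bp from that of BEAF-32. Past the start, 3 summits of the pooled list (99.9, 138 and 132) fell in the 5′ UTR and coding sequence and outside the IDR list.

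pita (FBgn0034878) encodes a zinc finger protein that recruits Cp190. It lies on chromosome 2R from 23548967 to 23554712 on the minus strand. Its summit at -38 bp had a signal value of 383 and rank 3878, with 136 and rank 4324 in replicate 2 and 244 and rank 3852 in replicate 3. Both values were above the medians of coding genes with a promoter summit, 119 in replicate 2 and 177 in replicate 3. Its alternative start, at position 23551551, had an IDR summit at +297 bp with 230 and rank 6952. This summit was -59 bp from Dcp-1, a caspase gene on the opposite strand whose start is 238 bp from that of pita. In replicate 2 it had 116 and in replicate 3 it had 109. The DRE of pita ran from -68 to -61 and that of BEAF-32 from -210 to -203.

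Ibf1 (FBgn0037670) and Ibf2 (FBgn0037669) encode a pair of BED-finger partners of Cp190 and are transcribed away from each other, with starts 463 bp apart. Ibf1 lies at chr3R:9258964-9260400 on the plus strand and Ibf2 at chr3R:9257727-9258501 on the minus strand. They shared a single IDR summit at position 9258479, which was +22 bp from Ibf2 and -485 bp from Ibf1, so it belonged to Ibf2 by distance. Its signal value was 196 with rank 8061, the weakest of the strongest summits of the 9 genes. Replicate 3 gave 124 and rank 7727 at this place. Replicate 2 gave 63.2 and rank 10350 there and a higher value, 88.7 and rank 7444, at +10 bp from Ibf1. The pooled list had 122 at +17 bp from Ibf1, outside the IDR list. The replicates thus differed in which side of the shared promoter was the higher.

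ZIPIC (FBgn0039740) encodes a zinc finger protein that interacts with Cp190. At chr3R:30035240-30036870 on the minus strand, it had no summit within 1000 bp of its start or in its body in the IDR list, the pooled list or replicate 3. Replicate 2 had a summit at +109 bp, in coding sequence, with a signal value of 56.8, rank 11452 of 30000 and a −log10 q-value of 2.96. A weak peak in a single replicate, on lists of unknown read depth, does not show whether the tagged protein is present there. The coding gene ocn starts 860 bp away on the same strand.

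**Figure D2:**
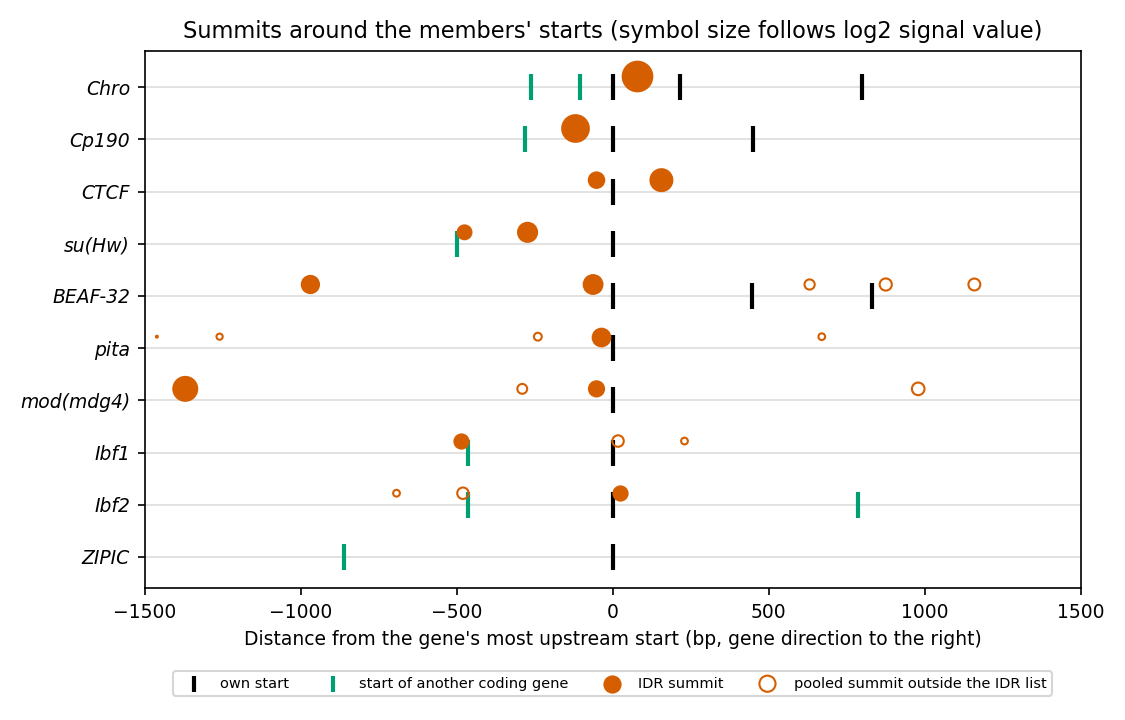
Map of summits around the most upstream start of each gene, in bp with transcription to the right. Filled symbols are IDR summits, open symbols pooled summits outside the IDR list, black ticks own starts and green ticks coding starts of other genes within 1000 bp of an own start, and symbol size follows the log2 signal value. The Chro summit (5851) is the largest and ZIPIC has none, while Ibf1 and Ibf2 show the same summit from either side. The alternative start of pita beside Dcp-1 lies beyond the right edge.

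In all, another coding gene started within 1000 bp of an own start in 7 of the 10 genes, beside 42.8% of coding genes. The genes without such a neighbour were CTCF, BEAF-32 and mod(mdg4). If a summit counts only for the coding gene with the nearest start, 7 of the 10 genes kept an IDR summit, beside 32.3% of coding genes, and su(Hw), Ibf1 and ZIPIC had none. The promoter summits numbered 12 distinct positions, of which 8 were nearest to a start of 1 of the 10 genes. The pull-down measures DNA, so which of 2 divergent genes a peak relates to was not tested.

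mod(mdg4) (FBgn0002781) encodes a large family of BTB proteins with a common start and different ends, among them the isoform that joins Su(Hw) and Cp190 at gypsy. The messages are known to be made by trans-splicing, in which the common first exons are joined to exons of separate precursor transcripts, some from the opposite strand. The gene spans chr3R:21350846-21377401 on the minus strand, with 22 annotated transcripts and 1 start. At that start the IDR summit, at -52 bp, was weak, with a signal value of 235 and rank 6810. Replicate 2 gave 85.8 at +5 bp and replicate 3 gave 165 and rank 5976 at -56 bp. In replicate 2 a summit at +979 bp was slightly higher, with 92.2 and rank 7124, and the pooled value there was 149 with rank 10128, just outside the IDR list.

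The strongest summit of the gene was not at its start but in its body. At position 21365426, +11975 bp from the start and in an intron, the signal value was 1670 with rank 292. Replicate 2 gave 476 and rank 442, and replicate 3 gave 1203 and rank 245. Both replicates placed it far above the summit at the start. The annotation has 23 precursor genes with 7 distinct starts inside mod(mdg4), and this summit lay among 3 of those starts. It was -136 bp from the shared start of pre-mod(mdg4)-AB, -C and -E, +62 bp from an alternative start of pre-mod(mdg4)-E, and -183 bp from the start shared by 7 precursors of the opposite strand. The other 2 IDR summits in the body were also beside precursor starts. At position 21373654 the signal value was 262 with rank 6086, -79 bp from pre-mod(mdg4)-AA, -N and -O, with 110 in replicate 2 and 146 in replicate 3. At position 21360129 it was 226 with rank 7075, -47 bp from pre-mod(mdg4)-T and -Z, with 124 in replicate 2 and no summit in replicate 3.

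The bases within 100 bp of the strongest summit of mod(mdg4) are shown on the minus strand, since the divergent precursor starts flank it on both sides.
mod(mdg4), chr3R:21365326-21365526: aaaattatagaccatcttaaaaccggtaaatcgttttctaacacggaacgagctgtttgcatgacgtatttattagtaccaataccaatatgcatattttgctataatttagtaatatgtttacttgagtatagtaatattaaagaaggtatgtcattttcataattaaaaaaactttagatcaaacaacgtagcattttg
None of the 6 short sequences was found in it, and its GC content was 27.4%. The window at the common start, by contrast, held the DRE from -2 to 5 bp around the summit.

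**Figure D3:**
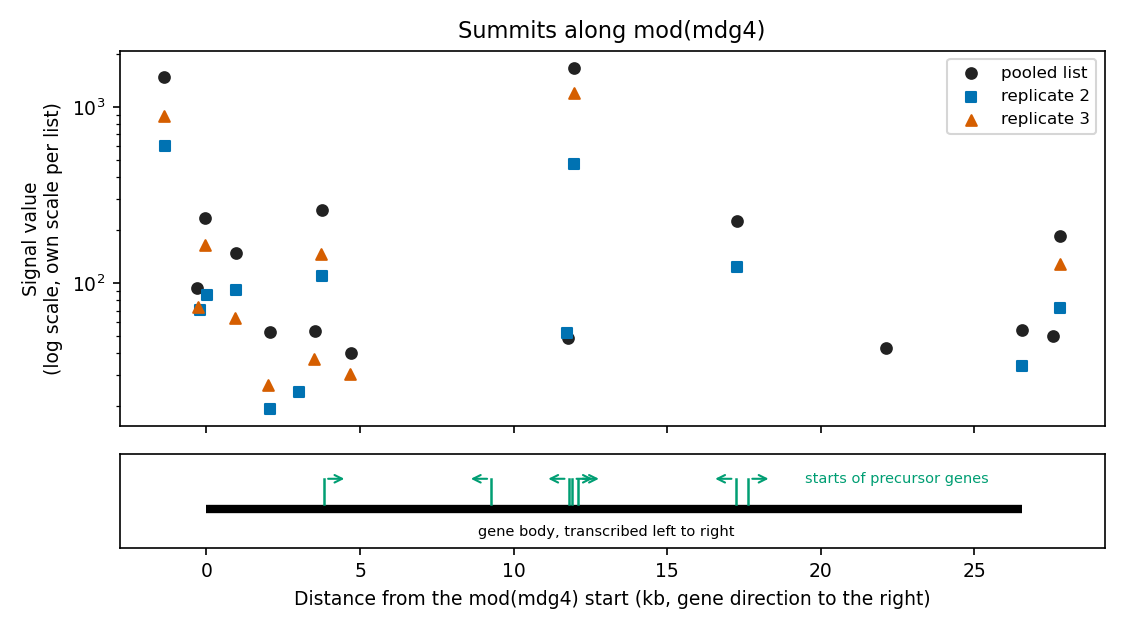
Signal values (log axis, each list on its own scale) of the summits along mod(mdg4), by distance in kb from its start, for the pooled list and both replicates. The strip below shows the gene body and the starts of its precursor genes with arrows for their direction. The highest summit inside the gene (pooled 1670) stands at the cluster of divergent precursor starts, and the summit at the common start is at 235. The high summit to the left of the start (pooled 1478) is beside tin.

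Inside the gene body an IDR summit was found in 5 of the 10 genes (CTCF, Chro, pita, Ibf2 and mod(mdg4)), beside 18.2% of coding genes. In the pooled list it was 7 of 10, with BEAF-32 and Ibf1 added, beside 36.0%. In CTCF, Chro, pita and Ibf2 the IDR summit in the body was within 300 bp of a start and is the promoter summit already described. Only in mod(mdg4) did IDR summits in the body lie over 1000 bp from any start of the gene.

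The distance of 1000 bp decided a few values. The outermost IDR summit inside it was that of BEAF-32 at -969 bp (351). The nearest strong summit outside it was at -1370 bp from mod(mdg4), with a signal value of 1478 and rank 400, and -206 bp from tin, which encodes the heart factor Tinman. Another, at +1621 bp from Ibf1, had 501 and rank 2619 and was -53 bp from ATP6AP2. At the IDR limit, the weakest summit inside was that of su(Hw) at -475 bp (186) and the strongest outside was that of mod(mdg4) at +979 bp (149).

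Ordered by rank, the 9 genes ran Chro, Cp190, CTCF, su(Hw), BEAF-32, pita, mod(mdg4), then Ibf1 with Ibf2. The first 3 kept their order in each replicate and were separated by gaps in rank larger than the difference in rank between replicates. Their signal values were less well separated. On the scale set by the list medians, replicates 2 and 3 gave 3838 and 7026 for Chro and 1822 and 3384 for Cp190. su(Hw) and BEAF-32 changed places between replicate 2, where their best ranks were 2404 and 3530, and replicate 3, where they were 2778 and 2374. mod(mdg4) stood before the Ibf pair in both replicates, with 7124 against 7444 in replicate 2 and 5976 against 7727 in replicate 3. In replicate 2 that gap was smaller than the difference between the 2 ranks of mod(mdg4) itself.

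**Figure D4:**
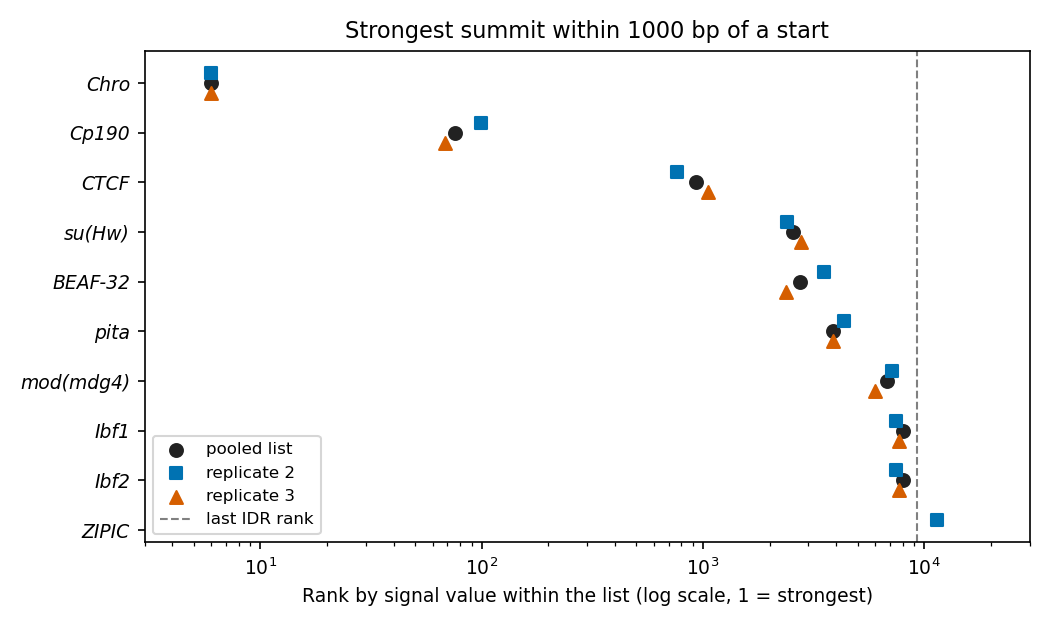
Rank by signal value (log axis, 1 is the strongest) of the strongest summit within 1000 bp of a start of each gene in the pooled list, replicate 2 and replicate 3, with the last IDR rank, 9299, as a dashed line. Chro has rank 6 in all 3 lists, and ZIPIC appears only in replicate 2, at rank 11452.

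The genes whose peaks were most like those of the 2 strongest were found by the Euclidean distance of log2 signal values over the 2 replicates, among 7784 coding genes with a promoter summit in both. For Chro these were Ssl1, which has the same summit, and then Art3 and mRpS10, which share a summit of their own (1793 in replicate 2 and 4339 in replicate 3, a distance of 0.11). For Cp190 they were CG4338, with the same summit, and then CG7183 and CG7988, again at a common summit (885 and 1918, a distance of 0.03). With 2 values per gene, such likeness says only that the peaks are of similar height.

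Further genes of chromosome organisation were counted in 4 lists, and 21 of 32 had an IDR summit within 1000 bp of a start. As for the 10 genes, the comparison is 43.8% of coding genes. Of 9 other insulator DNA-binding proteins 4 had one. M1BP, the Motif 1 binding protein, had a signal value of 1464 (583 in replicate 2 and 882 in replicate 3). Trl, the GAGA factor, had 754, and Dref, the DRE-binding factor, had 711. dwg, Elba1 and Elba2 were among those without an IDR summit near a start. In the pooled list dwg had 102 and Elba2 had 116, while Elba1 had none in any list. All 4 IDR promoter values were below that of Cp190, although Trl also had an IDR summit of 5037 in its gene body.

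Of 9 cofactors 8 had an IDR summit, all but Rm62, an RNA helicase gene. The strongest were pzg (1199), which encodes a partner of Dref and Chromator, shep (1112), an RNA-binding modifier of gypsy insulator activity, and fs(1)h (662), the fly BET bromodomain protein. Of 7 genes of cohesin and its regulators 4 had a summit, none above 411, which was the value of vtd, the kleisin subunit. wapl, which encodes the cohesin release factor, had 262 and SA1, a stromalin subunit, 228, while SMC1, Nipped-B and dmt had no IDR summit. In the pooled list SMC1 had 124 and dmt 40.9 near a start, and Nipped-B had none in any list. Of 7 condensin genes 5 had a summit, led by Cap-H2 (1810), which encodes the condensin II kleisin, with 632 in replicate 2 and 1193 in replicate 3. SMC2 (1219) and barr (563) followed, and glu and Cap-D3 had no IDR summit near a start. Cap-D3 had 74.1 near a start in the pooled list and an IDR summit of 200 in its gene body. For glu only replicate 2 had a summit near a start (52.0). The lists were not tested against each other.

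**Figure D5:**
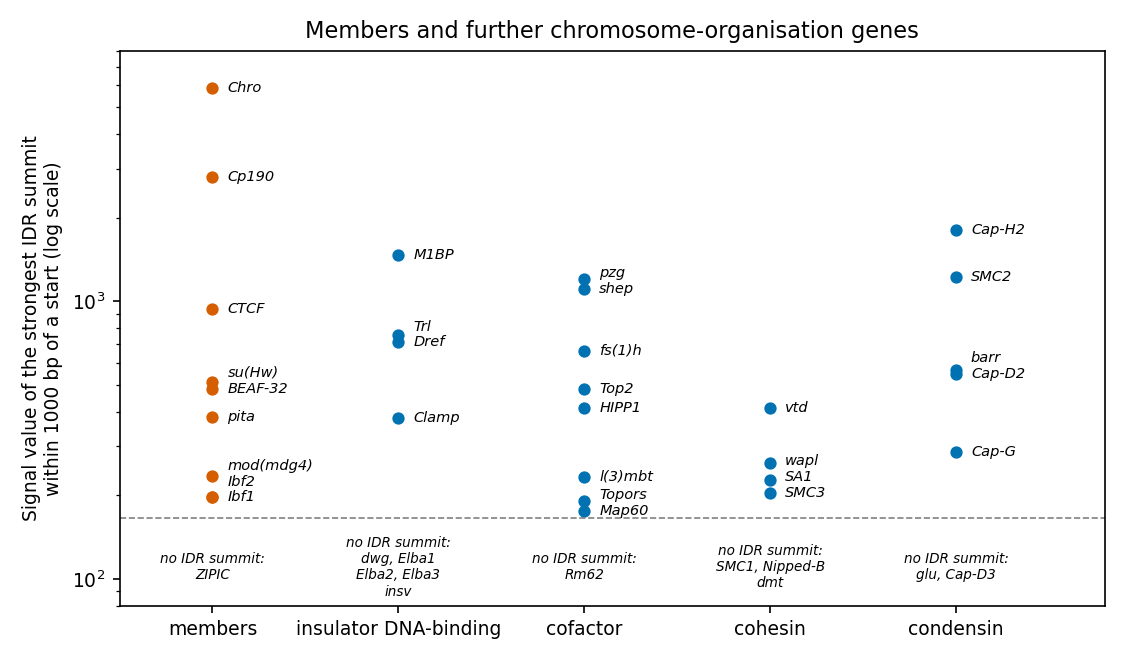
Signal value (log axis) of the strongest IDR summit within 1000 bp of a start for the 10 insulator protein genes and the 4 lists of further chromosome-organisation genes. Each point is a gene, the dashed line is the lowest IDR signal value (166), and genes without an IDR summit are named below it. Cap-H2 (1810) and M1BP (1464) are the highest of the further genes and lie below Chro and Cp190.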

How the data were processed

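Per the labels, GFP-tagged Nemo was precipitated from whole embryos in 2 biological replicates. The authors deposited 4 narrowPeak lists on dm6, whose column 7 holds the signal value and column 9 the −log10 q-value. The position of each summit within its peak, a base offset deposited by the authors, was added to the peak start. The IDR threshold, the aligner and the software that called peaks are not given in the sources used here. Read depth is unknown, so no interval on a peak's strength was computed, and with 2 replicates precision is limited to how far their values and ranks repeat.

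Starts came from Ensembl release 115 (BDGP 6.54) and sequence from RefSeq Release 6. Summits were assigned within 1000 bp of any annotated start of a gene or between its ends. Motifs were searched on both strands within 100 bp of summits and from 250 bp before to 50 bp after starts. Python 3.11.15, numpy 2.4.6 and pandas 2.3.3 were used, and the assignment was checked on simulated data. No tests were run. Counts are set beside the share of all coding genes.

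The members and lists were chosen with earlier results of these data known. Named genes were the 10 members, genes sharing their strongest promoter summit, the 3 strongest and up to 3 without a summit of each further list, and the 3 genes nearest in signal value to the top 2 members. Genes named beside other summits (tin, Spred, Dcp-1, ATP6AP2, ocn and the precursors) were chosen after their values were seen. A planned count of zinc fingers was left out because no protein sequences were used here. Alternatives were other distances, lists, starts and annotation.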

Additional observations from a re-analysis of the deposited data

How the results depend on the processing

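The count of 9 of 10 genes with an IDR summit within 1000 bp of a start was the same at 500 bp and 2000 bp, with all pooled peaks, with the 9299 strongest peaks of each replicate alone, with the 5′ end of the gene as the single start and with RefSeq starts. It was 6 with the 4649 strongest IDR peaks and 7 when a summit counted only for the nearest coding start, an alternative chosen after seeing the data. The count with an IDR summit in the body was 5 with either replicate alone, 7 with the pooled list and 3 with the 4649 strongest peaks. The genes behind the equal counts differed. Ibf2 was in neither replicate's count, and in its place stood Ibf1 (rank 7444) in replicate 2 and BEAF-32 (rank 8236) in replicate 3. The median signal value of 484 ranged from 325 without replicate 3 to 540 without replicate 2, after each replicate was brought to the pooled scale, and was 725 with the 4649 strongest peaks, where fewer genes enter. The further genes with a summit were 21 in the main count, 20 and 21 with 1 replicate, 23 at 2000 bp, 28 with the pooled list and 14 with the 4649 strongest peaks. Over all coding genes, the share near a start was 43.8% with the IDR list and 61.8% with the pooled list. In the body these shares were 18.2% and 36.0%, and 32.3% had an IDR summit nearest to an own start. For the other settings no share of coding genes was computed, so those counts have no comparison. Without replicate 3, on the scale set by the list medians, the value of Chro was 3838 and that of Cp190 was 1822. Each was over 1.5 times below the pooled value, a gap that depends on that scale, while their ranks among peaks were 6 and 99. With 2 replicates, the spread between them and the value without either rest on the same numbers, so they show little about stability. At 2000 bp the strongest value became 1478 for mod(mdg4) and 501 for Ibf1, from the peaks beside tin and ATP6AP2.

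No paired analysis was possible because the series has 1 group. Read depth is unknown, no input or mock was analysed here, and the replicate lists stop at 30000 peaks, so no summit in a list is not absence of binding. Tagged Nemo was precipitated from mixed tissues and ages, and a peak shared by 2 divergent genes cannot be divided between them.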
